A study of Mus musculus with 4 samples.

Results

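A set of 10 genes of the Notch pathway and of bile duct fate were followed through fibroblasts undergoing hepatocyte reprogramming. They were chosen by name, as rows of the deposited table whose gene symbol was Notch1, Notch2, Notch3, Jag1, Jag2, Hes1, Hey1, Heyl, Sox9 or Spp1, and make up 10 of the 55397 genes listed. The data are bulk RNA-seq of primary mouse embryonic fibroblasts (MEFs, connective tissue cells taken here from the limbs of several pooled embryos at mid-gestation) of a C57BL/6J line. All 4 libraries came from cells of the same genotype, Prox1 fl/fl, in which Cre recombinase can remove a part of both Prox1 alleles, and all cells received by lentivirus the 4-in-1 cassette of hepatocyte transcription factors. The 2 groups of 2 libraries differed in the second lentivirus, which carried Cre joined to GFP (labelled Prox1 KO, called KO-labelled below) or a non-functional delta Cre joined to GFP (control), and RNA was taken at day 14. The comparison asked what loss of the transcriptional repressor PROX1 did to these genes during reprogramming.

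Notch receptors are cell surface proteins that are cut when a ligand on a neighbouring cell, such as Jagged 1 or Jagged 2, binds them. The released intracellular piece enters the nucleus, joins the DNA-binding protein RBPJ and switches on targets that include the repressors of the Hes and Hey families. In the developing liver, Jagged signals from the mesenchyme around the portal vein to NOTCH2 on hepatoblasts direct them towards bile duct cells, which express SOX9 and osteopontin (the product of Spp1). The same genes also have roles outside the liver, NOTCH3 in vascular smooth muscle and pericytes, SOX9 in cartilage and osteopontin in bone and many stromal cells.

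The libraries held between 42469031 and 48524008 reads on genes, and all values below are normalized counts, that is, reads per gene divided by the size factor of the library. The 15809 genes whose mean reached 10 normalized counts were tested with limma on log2(normalized counts + 1), with the replicate number as a block, so each KO-labelled library was set against the control library of the same number. Log2 fold changes are given as Prox1 KO minus control with limma's standard error, on that scale. A gene passed the test at a Benjamini-Hochberg adjusted p under 0.05. Where nothing says that libraries came from separate cultures, these p-values measure only the spread between these libraries, which may be technical. Prox1 itself had 72.7 and 61.6 normalized counts in the KO-labelled libraries against 60.6 and 25.5 in the controls (log2 fold change 0.75, SE 0.27, limma adjusted p = 0.0936), so it was not lower where the labels say it was deleted. The source data of the study describe deletion of a single exon, and the count covers the whole gene, so it does not check the deletion. All directions below therefore rest on the labels.

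Of the 10 genes, all of which had enough reads to be tested, Notch3 and Jag2 were higher in the KO-labelled libraries and the other 8 did not pass the test. Over all genes tested, 11.4% passed in either direction, 5.09% higher and 6.29% lower. The differences were small, with 8 of the 10 below 0.25 on the log2 scale in either direction. Their median was 0.04 beside -0.0022 over all genes. Differences over all tested genes were small too, with a median size of 0.102 regardless of sign. The groups did not overlap for 5 genes, which were higher for Notch1, Notch2, Notch3 and Jag2 and lower for Heyl, while 44.4% of all tested genes showed no overlap, 21.8% as higher and 22.6% as lower.

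The plot of the 10 genes by library shows each value that the following paragraphs go through.

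**Figure D1:**
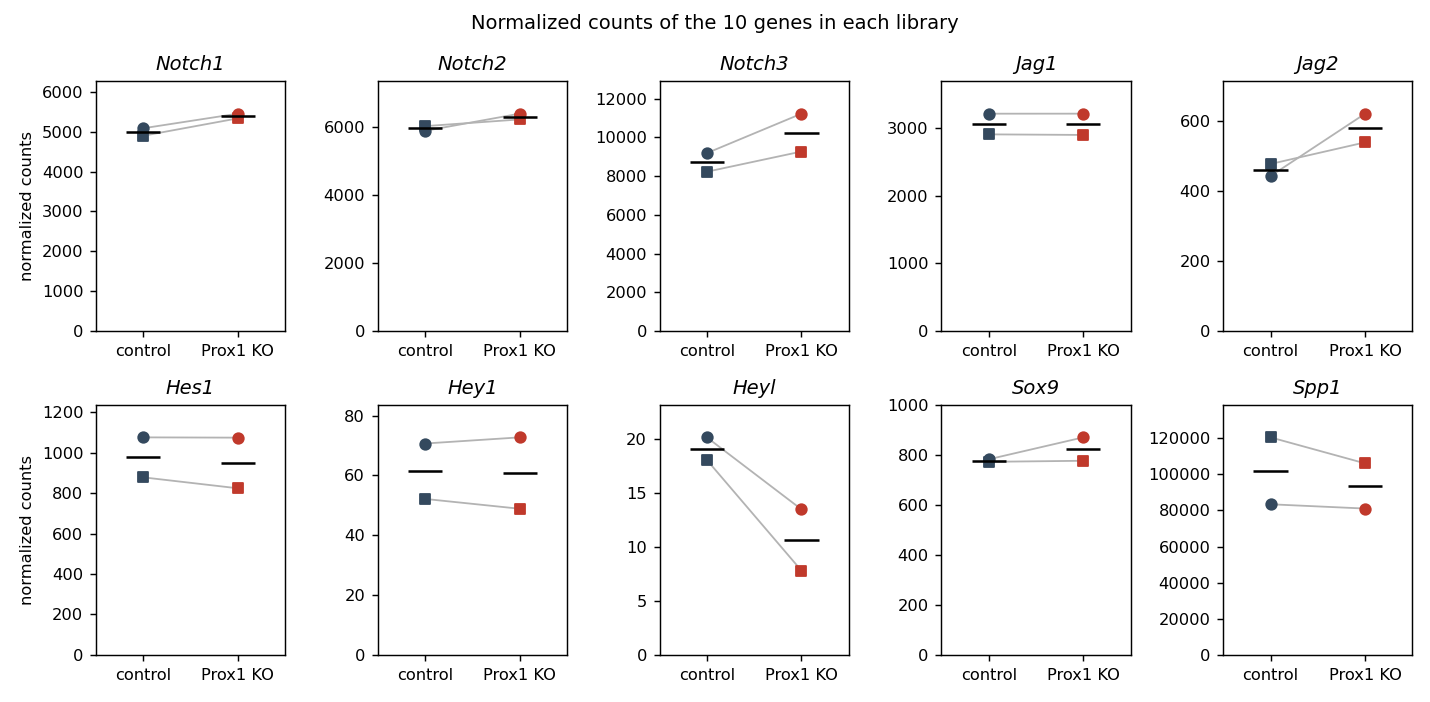
Normalized counts (y axis, one scale per gene) of the 10 genes in each library labelled control (dark blue) or Prox1 KO (red). Circles are replicate 1 and squares replicate 2, grey lines join a pair and black bars are group means (n = 2). The Notch1, Notch2, Notch3 and Jag2 values of the KO-labelled libraries all lie above the controls, and those of Heyl below. Those of Jag1, Hes1, Hey1, Sox9 and Spp1 are mixed.

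Notch3 encodes the receptor best known from mural cells of blood vessels and was the most abundant of the receptors. It lies on chr17:32120820-32166852 of GRCm38, on the minus strand. It had 11227 and 9273 normalized counts in the KO-labelled libraries and 9192 and 8231 in the controls. Both KO-labelled libraries were above both controls, although replicate 2 of the former was close to replicate 1 of the latter. The means were 10250 ± 1382 and 8711 ± 680 (SD, n = 2 each), and the difference was 0.29 in pair 1 and 0.17 in pair 2 on the log2 scale. The log2 fold change was 0.23 (SE 0.04, 95% interval 0.14 to 0.32, limma adjusted p = 0.0021), a rise of 17.3%. Without the replicate block the call was lost (limma adjusted p = 0.464), and the value then rested on single libraries, at 0.09 without KO-labelled replicate 1, 0.15 without control replicate 2 and 0.37 without KO-labelled replicate 2.

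Jag2, the gene of the ligand Jagged 2, lies on chr12:112907819-112929776 (minus strand) and was present at 620 and 539 normalized counts in the KO-labelled libraries and 442 and 477 in the controls. The 2 groups did not overlap. The difference was 0.49 in pair 1 and 0.18 in pair 2, so pair 1 carried more of it. Over both pairs the log2 fold change was 0.33 (SE 0.09, 95% interval 0.13 to 0.53, limma adjusted p = 0.0332), a rise of 25.8%. DESeq2 with the same block did not call it (adjusted p = 0.492), nor did limma without the block (adjusted p = 0.383). In bulk RNA, more or fewer cells of a type and more or less RNA per cell cannot be told apart, for this and every other gene here.

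Of the remaining receptors, Notch1 (chr2:26457903-26516663, minus strand) had 5451 and 5333 normalized counts in the KO-labelled libraries and 5085 and 4897 in the controls. Notch2, the receptor tied to bile duct formation (chr3:98013527-98150361, plus strand), had 6387 and 6218 against 5883 and 6021. For both genes the groups did not overlap and both pairs went up, but the differences were small. The log2 fold change was 0.11 (SE 0.04, limma adjusted p = 0.106) for Notch1 and 0.08 (SE 0.04, limma adjusted p = 0.249) for Notch2. Their 95% intervals were 0.02 to 0.20 and -0.01 to 0.17, and both overlap the 0.14 to 0.32 of Notch3. A test of whether the receptors differed from each other in their change was not run. Some reads of these receptors could come from overlapping genes. For Notch1, 0610009E02Rik and Gm13568 shared 12.7% of the 100-base windows in its longest transcript, against 3.69% for Notch3 (Gm17276) and 2.43% for Notch2 (Gm42820).

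Jag1, the ligand gene whose loss causes bile duct paucity in Alagille syndrome, lies on chr2:137081456-137116644 (minus strand). It had 3207 and 2893 normalized counts in the KO-labelled libraries and 3207 and 2902 in the controls. Values in each pair were almost equal, whereas replicate 1 was above replicate 2 in both groups. The log2 fold change was -0.002 (SE 0.05, 95% interval -0.10 to 0.10, limma adjusted p = 0.987), an interval that holds no difference beyond 0.10 in either direction. The difference in change between Jag1 and Jag2 was not tested.

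Sequences upstream of the RefSeq starts of Notch3 and Jag2, the 2 genes that passed, are shown beside that of Jag1, which did not pass. RefSeq (GRCm38.p6) gave a promoter for 6 of the 10 genes, Notch1, Notch2, Notch3, Jag1, Jag2 and Spp1. The 250 bases before each RefSeq start were read 5′ to 3′ on the gene's strand, and "before" a gene below refers to that start. RefSeq starts can differ from the gene positions given above. By those positions, the windows of Jag2 and Notch1 lie inside the gene, and those of Jag1 and Notch2 partly inside it. Capitals mark the GC box GGGCGG, or CCGCCC on the opposite strand, the kind of site bound by SP1-type factors.
Notch3, chr17:32166891-32167140, minus strand: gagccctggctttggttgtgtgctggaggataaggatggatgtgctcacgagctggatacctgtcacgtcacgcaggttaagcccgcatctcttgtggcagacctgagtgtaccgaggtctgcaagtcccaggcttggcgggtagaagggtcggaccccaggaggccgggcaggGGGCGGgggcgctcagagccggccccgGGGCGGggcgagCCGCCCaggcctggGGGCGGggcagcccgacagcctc
Jag2, chr12:112929496-112929745, minus strand: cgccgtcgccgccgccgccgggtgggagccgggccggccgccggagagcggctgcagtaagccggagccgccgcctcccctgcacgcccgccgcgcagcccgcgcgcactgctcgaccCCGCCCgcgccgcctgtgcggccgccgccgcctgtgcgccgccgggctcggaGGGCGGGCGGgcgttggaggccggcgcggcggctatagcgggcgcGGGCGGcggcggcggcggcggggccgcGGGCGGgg
Jag1, chr2:137116521-137116770, minus strand: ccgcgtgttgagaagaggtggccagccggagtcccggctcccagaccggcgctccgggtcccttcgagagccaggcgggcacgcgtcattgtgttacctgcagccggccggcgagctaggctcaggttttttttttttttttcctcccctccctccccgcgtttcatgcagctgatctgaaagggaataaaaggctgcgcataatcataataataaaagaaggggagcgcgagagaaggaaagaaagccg
The GC box occurred 4 times before Notch3 and 5 times before Jag2, with a pair of copies overlapping before Jag2, and not at all before Jag1. It was also found before Notch1 and Notch2 (5 times each), which did not pass the test, and in 32.9% of the windows of all 27025 genes with a promoter. The bases before Jag2 were 87.2% G or C, before Notch3 68.8% and before Jag1 57.2%. The core of the RBPJ motif, TGGGAA and its reverse complement TTCCCA on the opposite strand, was in none of the 6 windows and in 21.5% of all windows. No match says only that these letters are not in the 250 bases searched.

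Genes that Notch signalling switches on did not pass the test. Hes1, a target repressor expressed in many cells (chr16:30064384-30067796, plus strand), had 1075 and 824 normalized counts in the KO-labelled libraries and 1076 and 878 in the controls. The log2 fold change was -0.05 (SE 0.07, 95% interval -0.19 to 0.09, limma adjusted p = 0.73). Hey1 (chr3:8663359-8667256, minus strand), a related repressor, was low, with 72.7 and 48.9 against 70.7 and 52.2. Both genes were higher in replicate 1 than in replicate 2 in either group, and their groups overlapped. For Hey1 the log2 fold change was -0.03 (SE 0.22) with a wide interval of -0.50 to 0.45 (limma adjusted p = 0.964).

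Heyl, the third repressor of this kind (chr4:123233556-123249875, plus strand), rested on few reads. The recovered counts were 13 and 8 reads in the KO-labelled libraries and 22 and 17 in the controls, or 13.51 and 7.82 against 20.2 and 18.1 normalized counts. Both KO-labelled libraries were below both controls. The log2 fold change of -0.83 was the largest of the 10 in size, but with an SE of 0.42 and a 95% interval of -1.72 to 0.06 it did not pass (limma adjusted p = 0.245).

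The 2 genes of bile duct fate did not pass either. Sox9, a transcription factor of bile duct cells and of cartilage (chr11:112782224-112787760, plus strand), had 872 and 778 normalized counts in the KO-labelled libraries and 784 and 774 in the controls. The groups overlapped, and only pair 1 showed a difference of any size (0.15, against 0.01 in pair 2). The log2 fold change was 0.08 (SE 0.07, 95% interval -0.07 to 0.24, limma adjusted p = 0.556).

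Spp1, which encodes the secreted phosphoprotein osteopontin (chr5:104435118-104441050, plus strand), had 81072 and 106099 normalized counts in the KO-labelled libraries and 83444 and 120511 in the controls. Its libraries split by replicate number and not by group, with both replicate 2 libraries far above both replicate 1 libraries. Within pairs the difference was -0.04 and -0.18, and the log2 fold change was -0.11 (SE 0.05, 95% interval -0.21 to -0.01, limma adjusted p = 0.162). Retaining every gene with a read in at least 1 library moved it past the threshold (limma adjusted p = 0.0388) without changing the fold change, whereas quantile normalization brought the fold change to -0.03 (adjusted p = 0.771) and leaving out the block gave an adjusted p = 0.861. Gm42793 shares 5.82% of the 100-base windows in the longest Spp1 transcript.

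For 5 of the 10 genes, Spp1, Hes1, Hey1, Jag1 and Sox9, the replicates differed by more than the groups did. From replicate 1 to replicate 2, Spp1 changed by 0.53 on the log2 scale in the controls and 0.39 in the KO-labelled libraries, whereas Hes1 changed by -0.29 and -0.38 and Hey1 by -0.43 and -0.56. The sign of this difference was the same in both groups for 8 of the 10 genes, and 9 were lower on average in replicate 2. These values describe the libraries and were not tested. In 8 of the 10 genes both pairs gave the same direction of the group difference. The shares of all tested genes for these counts were not worked out, so the counts cannot be read as particular to the 10 genes.

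**Figure D2:**
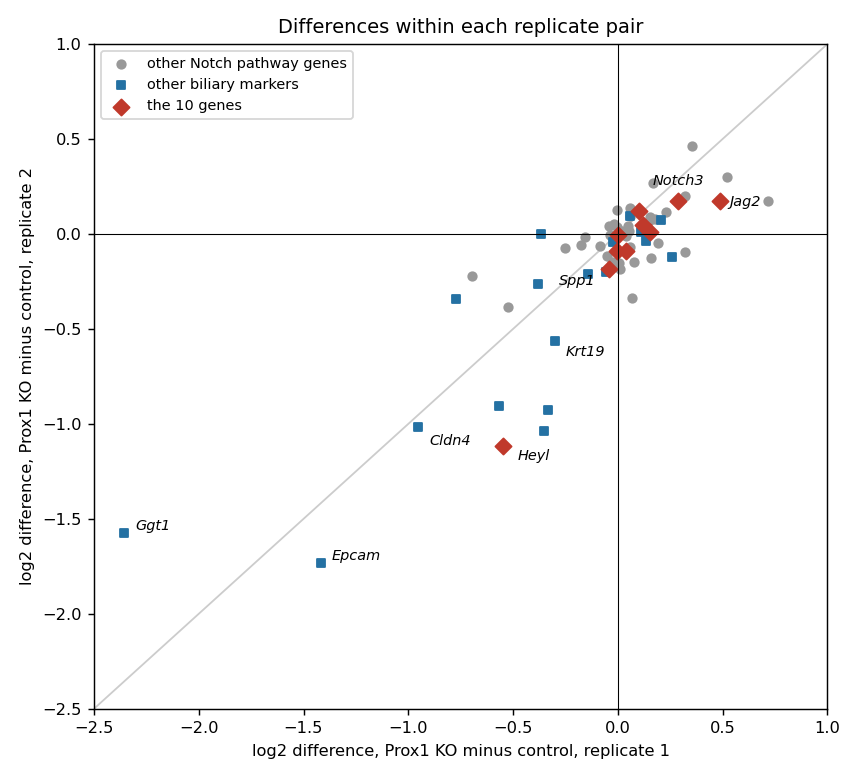
Difference between Prox1 KO and control on the log2 scale in pair 1 (x axis) and pair 2 (y axis) for the 10 genes (red diamonds), the other Notch pathway genes (grey circles) and the biliary markers (blue squares). The grey line marks equal differences. Notch1, Notch2, Notch3, Jag2 and Sox9 are above 0 in both pairs, and Hes1, Heyl and Spp1 are below 0 in both.

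Levels can be compared between genes only per length. On normalized counts per kilobase of exon, averaged over the 4 libraries, Spp1 was far above the rest at 59334, followed by Notch3 at 1172 (range 1018 to 1388). Notch2 (568), Jag1 (524), Hes1 (473) and Notch1 (365) came next, and of these neighbours Notch2 with Jag1 and Jag1 with Hes1 had ranges that overlapped over the libraries. Sox9 (194) and Jag2 (74.6) were lower, and Hey1 (18.7) and Heyl (2.92) lowest. Among the receptors and ligands of the 10 genes, Notch3 was thus the highest and Jag2 the lowest.

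**Figure D3:**
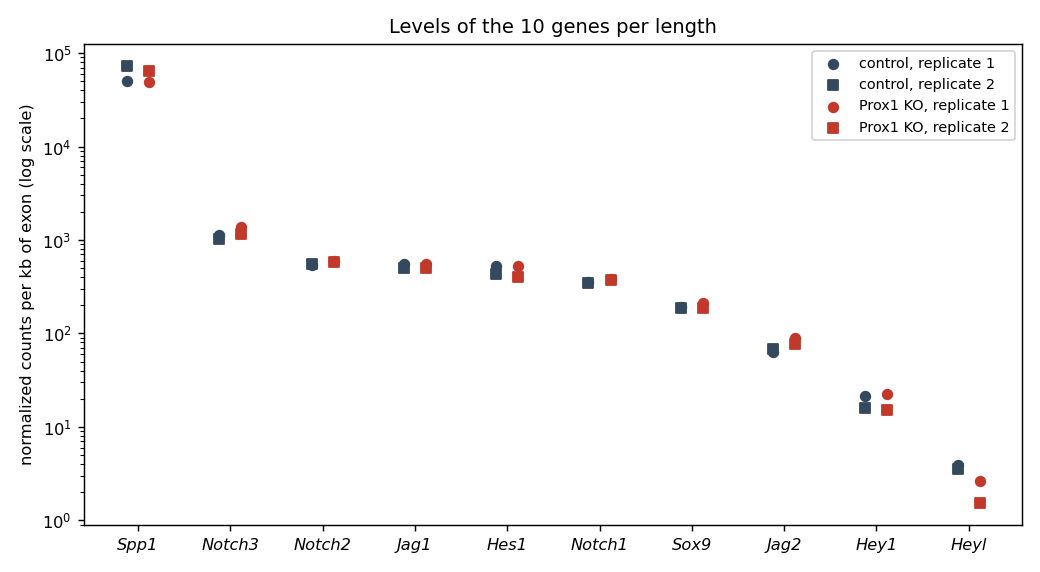
Normalized counts per kilobase of exon (log axis) of the 10 genes in each library, ordered by the mean, with circles for replicate 1 and squares for replicate 2. Spp1 is about 50.6 times Notch3, and the ranges of Notch2, Jag1 and Hes1 run into each other.

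A further 43 genes of the Notch pathway were listed by role. Of these 38 were tested and 5 passed, 3 higher and 2 lower, or 13.2% beside the 11.4% of all genes, with a median of 0.02. The remaining receptor, Notch4, an endothelial gene, had 475 and 364 normalized counts in the KO-labelled libraries and 330 and 295 in the controls (log2 fold change 0.41, SE 0.10, limma adjusted p = 0.0177). Dlk2, a ligand-like protein, had 572 and 378 against 348 and 335 (0.44, SE 0.12, limma adjusted p = 0.0233). Both rose, with both KO-labelled libraries above both controls. Dlk1, a non-canonical ligand abundant in fetal tissue, fell from 18483 and 13939 in the controls to 11404 and 11939 (log2 fold change -0.46, SE 0.07, limma adjusted p = 0.000641). Dtx4, of the Deltex family of ubiquitin ligases, also fell, with 780 and 995 against 1123 and 1299 (-0.45, SE 0.07, limma adjusted p = 0.00035). DESeq2 called only Dtx4 of these 5.

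The pathway's smaller groups hold too few genes for their counts to be compared with the 11.4% of all genes that passed. Of 3 tested genes for other ligands 2 passed, Dlk2 and Dlk1. None of 9 genes for the proteases that cut the receptors passed in limma (1, Psenen, had an unadjusted p under 0.05), and none of 4 tested genes for the enzymes that add sugars to them (1, Lfng, at 0.26 with a limma adjusted p = 0.0618). Rbpj, the DNA-binding partner, had 2812 and 2709 normalized counts in the KO-labelled libraries and 2849 and 2767 in the controls, with a 95% interval of -0.12 to 0.07 on the log2 fold change (limma adjusted p = 0.807). Among further targets, Nrarp, a feedback inhibitor, had 89.4 and 54.7 against 69.8 and 39.4 (0.41, SE 0.22, limma adjusted p = 0.289), and Hey2 gave 0.11 (limma adjusted p = 0.82). The ligand gene Dll1 gave -0.14 (limma adjusted p = 0.787). Dll3, Dll4, Mfng, Hes5 and Hes7 were too low to test, with 0 to 6 reads per library for Dll4 and 0 in all 4 libraries for Hes5, which allows up to 3 reads in each.

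Of 24 listed markers of bile duct cells other than Sox9 and Spp1, 18 were tested, of which 8 fell, 1 rose and 9 did not pass (6.29% of all genes fell and 5.09% rose), with a median of -0.25. The tight junction gene Cldn4 had 525 and 552 normalized counts in the KO-labelled libraries and 1017 and 1117 in the controls (log2 fold change -0.98, SE 0.07, limma adjusted p = 8.26e-07). Epcam, an epithelial adhesion gene, had 56.1 and 67.4 against 151 and 227 (-1.58, SE 0.18, limma adjusted p = 3.63e-05). For these genes both KO-labelled libraries were below both controls by a wide margin.

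Krt19, a keratin of bile duct cells, had 2976 and 3242 against 3665 and 4794 (-0.43, SE 0.06, limma adjusted p = 0.000119), and Ggt1, a gamma-glutamyltransferase, had 17.7 and 29.3 against 94.6 and 89.4 (-1.97, SE 0.27, limma adjusted p = 0.000232). Bicc1, Itgb4, Pkhd1 and Prom1 also fell, by 0.32, 0.69, 0.74 and 0.56 on the log2 scale. Slc4a2, an anion exchanger, was the 1 that rose (0.14, limma adjusted p = 0.0469), a call that was lost under 5 of 8 alternatives. Krt7, the other duct keratin, did not pass (-0.18, limma adjusted p = 0.0876).

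**Figure D4:**
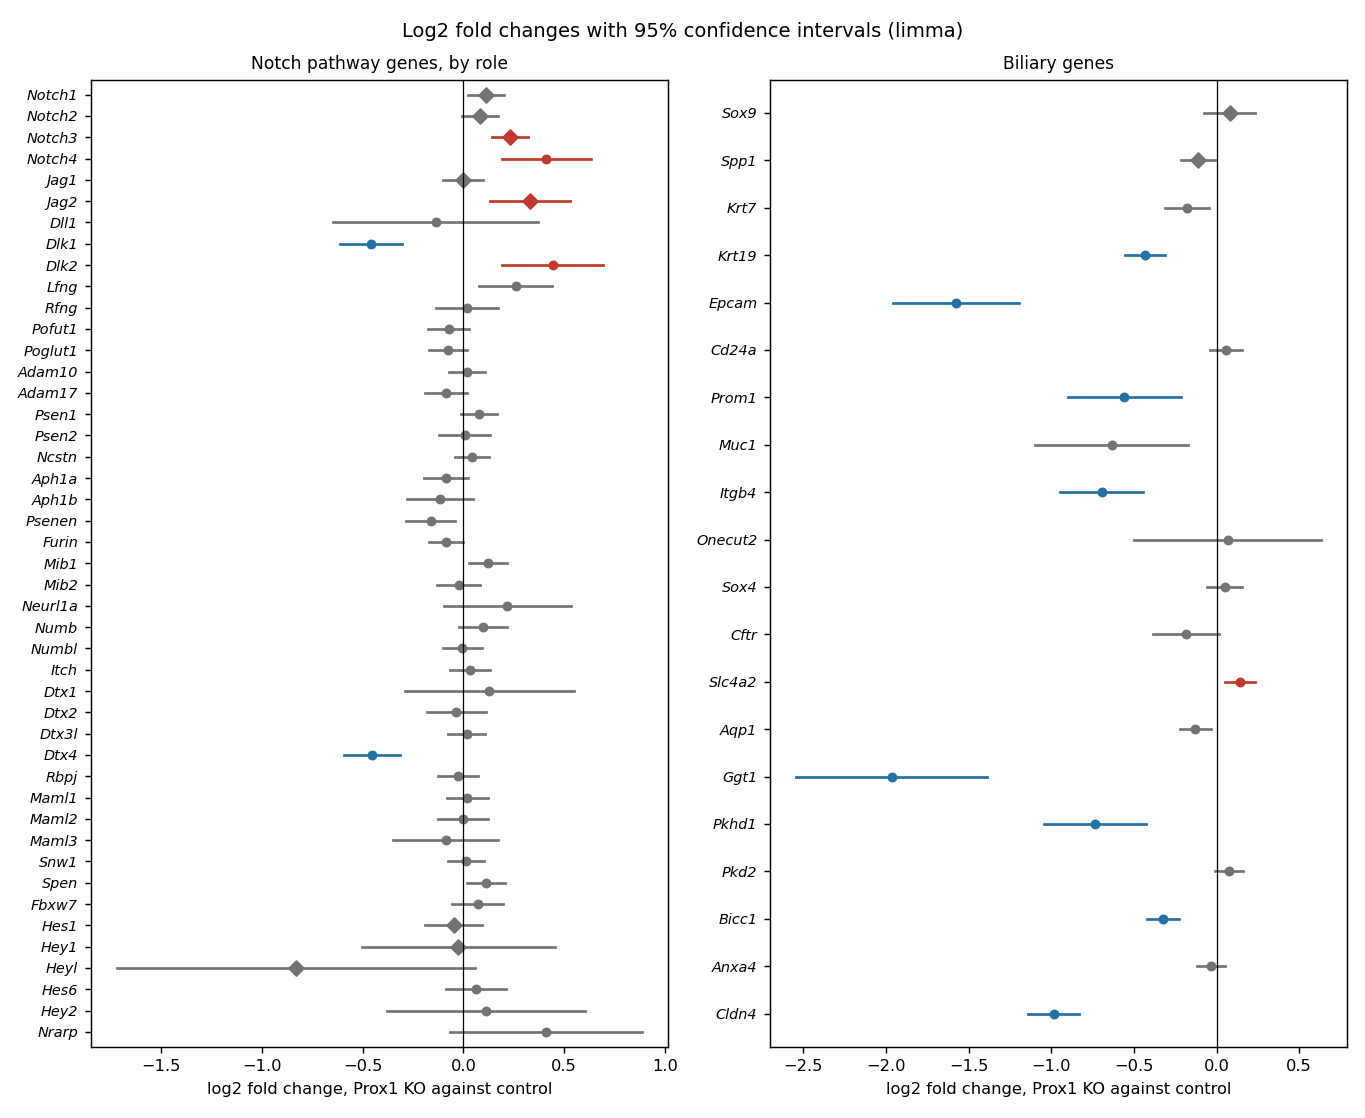
Log2 fold change (x axis, Prox1 KO minus control) with its 95% interval from limma for tested Notch pathway genes, ordered by role (left), and biliary genes (right). Diamonds are the 10 genes and circles the others, red passed as higher, blue as lower and grey did not pass. Heyl has the widest interval of the 10, and Epcam, Ggt1 and Cldn4 lie farthest below 0 among the biliary genes.

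**Figure D5:**
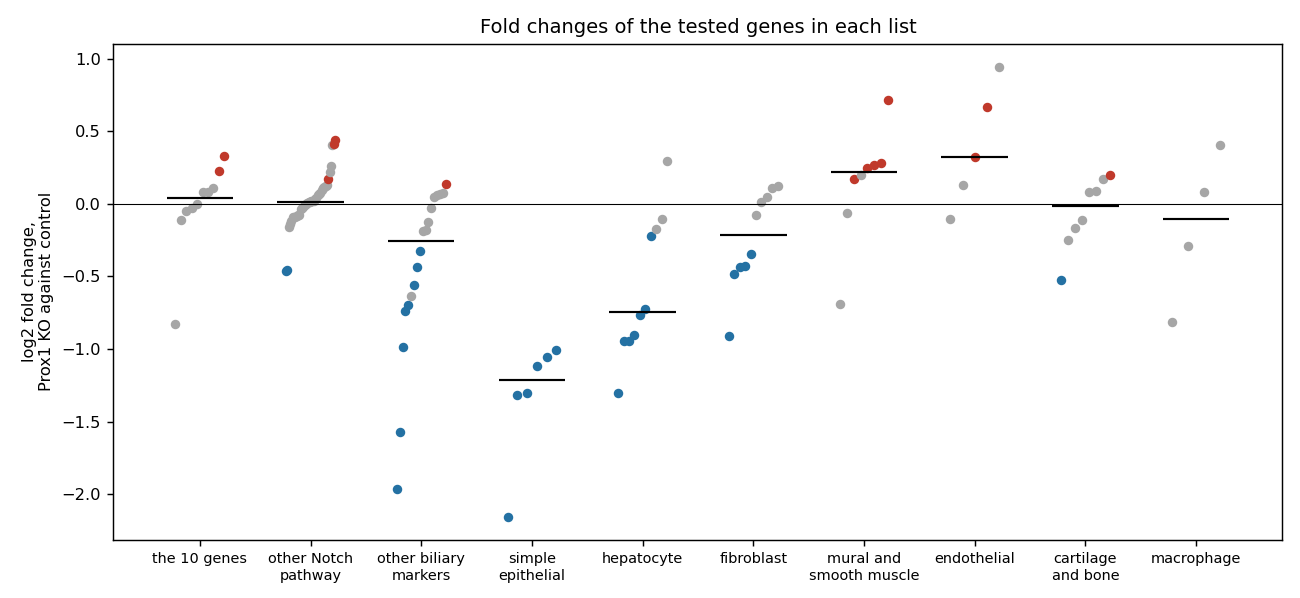
Log2 fold change of each tested gene in the 10 genes, the other Notch pathway genes, the biliary markers and the cell type marker lists, with the median of each list as a bar. Red points passed as higher, blue as lower and grey points did not pass. The biliary, hepatocyte and simple epithelial markers lie mostly below 0, and the mural and smooth muscle markers mostly above.

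Markers of other cell types moved with the groups, and their counts stand beside 5.09% of all genes that rose and 6.29% that fell. Of 6 tested markers of simple epithelium all 6 fell, among them Krt18 and Cdh1, and the summed level of the 8 listed was 4099 and 4941 normalized counts in the KO-labelled libraries against 8062 and 12279 in the controls. Several biliary markers that fell, such as Epcam, Krt19 and Cldn4, are also genes of epithelia in general. Of the hepatocyte markers, 7 of 10 tested fell (summed level of 12, 19620 and 21575 against 27022 and 29638), and 5 of 10 fibroblast markers fell while none rose. Fibroblast markers, those of the labelled cell type, were abundant in all 4 libraries, with summed levels of 1569570 and 1815620 against 1593640 and 1894180. Their part in the biliary result was not tested.

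Of 8 mural and smooth muscle markers, the cell types in which Notch3 is best known, 5 rose (Acta2, Tagln, Myh11, Cnn1 and Cspg4). None passed as lower, and none was at 0 in any library. Rgs5 (0.20), Pdgfrb (-0.06) and Kcnj8 (-0.69, with 6 to 30 reads per library) did not pass. The summed level of the 8, mostly Acta2 and Tagln, was 112326 and 105185 in the KO-labelled libraries against 92151 and 92791 in the controls. Of the 5 that rose, Myh11 rose most, by 0.72 on the log2 scale (limma adjusted p = 8.26e-07). Of 8 endothelial markers 5 were tested and Kdr and Flt1 rose, whereas the defining markers Pecam1, Cdh5 and Tie1 had at most 12 reads in any library. The summed endothelial level, mostly Flt1, was 9258 and 8404 against 7841 and 6167. Among 8 tested of 13 cartilage and bone markers, where Sox9 and Spp1 are also expressed, Col11a1 rose and Comp fell, and the summed level was 30824 and 28916 against 26555 and 26771, with the defining markers Acan, Sp7 and Bglap too low to test. Of 8 macrophage markers 4 were tested and none passed by limma (2, Cd68 and Trem2, had an unadjusted p under 0.05), with summed levels of 323 and 391 against 340 and 331 and Adgre1 at 0 in every library. Acta2 had at least 43363 normalized counts in every library, controls included, and these lists do not show which cells the RNA came from. The part of any such cells in the values of Notch3, Notch4, Jag2, Sox9 and Spp1 was not tested.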

How the data were processed

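Bulk RNA of 4 libraries was sequenced after a dUTP protocol with paired reads of 100 bases. The authors mapped reads to mm10 with STAR and deposited 1 signal per gene, the read count scaled by a DESeq2 size factor for each library. The read counter, its strand setting and the annotation release are not given in the sources used here, so reads of a gene and an antisense partner may not be separate. In each library 100% of positive values were whole reads (within 0.01 read) once divided by 1 step, so the reads could be recovered. A second deposited table holds the authors' own fold changes and p-values and was not used. No per-sample column was left unused (0).

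Groups and replicate numbers came from the labels. Genes with a mean of at least 10 (15809 of 55397) were fitted with limma 3.58.1 (R 4.3.3) on log2(value + 1), with an intensity trend in the variance and the replicate number as block, since the study's methods use the primary MEF line as covariate. Whether the numbers are MEF lines is not stated. Deviations from the group means of same-numbered libraries correlated at 0.402 across genes. With 2 libraries per group, swapping the numbers in either group would only turn the sign, so this value does not settle the pairing. Among genes with at least 20 reads over both libraries of a group, these differed beyond counting noise in 34.2% (Prox1 KO) and 35.4% (control). None was thus the same library sequenced again, but this does not show that they came from separate cultures. An exact permutation test of 2 against 2 cannot go below 0.333 and was not used. SDs are between 2 libraries, and counting error does not cover amplification.

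The 10 genes and the lists were chosen with earlier results of these data known. Named genes were the 10, fixed members of the other lists, the up to 8 called genes with the largest change in the same direction in both pairs, and called or abundant cell type markers. Values of some listed genes that the counts include are not reported here. Positions come from GENCODE vM21 (GRCm38; 55137 identifiers matched). The fits were tested on simulated data. Alternatives were no block, pseudocounts of 0.1 and 10, no filter on low values, a mean of at least 50, quantile normalization, edgeR 4.0.16 (quasi-likelihood) and DESeq2 1.42.0 on the recovered reads with the block, and each pair left out. Leaving out single libraries without the block was chosen after seeing the data.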

Additional observations from a re-analysis of the deposited data

How the results depend on the processing

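Pseudocounts, filters on low values, quantile normalization and edgeR with the block kept every count of calls within 1.5 times of that reported (1452 to 2091 of all genes, 2 to 3 of the 10 genes, 5 to 6 of the other Notch genes and 7 to 11 of the biliary markers). Without the replicate block limma called 0 genes in all, although 1783 had an unadjusted p under 0.05, and so 0 of the 10 genes (1 at an unadjusted p under 0.05), 0 of the other Notch genes (3) and 0 of the biliary markers (10). DESeq2 with the block called 483 genes, 1 of the 10 (Notch3), 1 of the other Notch genes (Dtx4) and 4 biliary markers (Cldn4, Bicc1, Krt19 and Epcam). DESeq2 gave no adjusted p for Heyl, Ggt1 or Prox1. The cause of these differences was not tested.

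Leaving out single libraries without the block gave 0 to 127 calls over all genes, 0 to 0 of the 10 genes, 0 to 0 of the other Notch genes and 0 to 2 of the biliary markers. The 127 came without replicate 2 labelled Prox1 KO. In this fit the group left with 1 library is assumed to vary like the other. No fit of this kind called Notch3 (0.09 to 0.37, limma adjusted p from 0.115 to 0.964) or Jag2 (0.23 to 0.43, 0.2 to 0.934). Leaving out a pair leaves no test, and gave 0.17 and 0.29 for Notch3 and 0.18 and 0.49 for Jag2.

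Over the 9 fits, Notch3 passed in 8 (limma, edgeR or DESeq2 adjusted p from 4.39e-06 to 0.464) and Jag2 in 7 (0.00343 to 0.492), and 9 of the 10 genes kept one sign. Hey1 turned to 0.0603 under quantile normalization. With single libraries left out, genes that did not pass turned sign as follows. Without replicate 2 labelled Prox1 KO, Jag1 was 0.0722, Hes1 0.14 and Hey1 0.26. Without control replicate 1, Jag1 was 0.07, Hes1 0.10 and Hey1 0.19. Without replicate 1 labelled Prox1 KO, Sox9 was -0.0016 and Spp1 0.0814, and without control replicate 2 Spp1 was 0.15. Heyl had 8 to 22 reads and Hey1 49 to 77, so their counting error was the largest of the 10.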
